A study of Mus musculus with 4 samples.

Results

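The hippocampus of mice lacking both Ogg1 and Mutyh (DKO) was compared with that of mice lacking Mutyh alone (Mutyh KO). By genotype the groups differ in Ogg1, and neither has Mutyh. These are 2 of the 4 libraries of the study. The others came from the wild type (WT) and from mice lacking Ogg1 alone (Ogg1 KO), and their values are given beside each result. All mice were C57BL/6 and 6 months old. The DKO mice carry Ogg1-/- and Mutyh-/- (the genotype label shortens the first to Ogg-/-) and the Mutyh KO mice Mutyh-/- alone. Each genotype is represented by 1 library of hippocampal RNA. The number and sex of the animals behind a library, and the part of each gene that was removed, are not given in the sources used here. The genes compared were the autosomal ones whose 4 libraries averaged 1 RPKM or more (reads per kilobase of gene, scaled to the library total). They numbered 12691 of the 18492 genes listed.

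Oxidation turns guanine in DNA into 8-oxoguanine, which can pair with adenine as well as with cytosine. Ogg1 is the glycosylase that removes 8-oxoguanine lying opposite cytosine. Mutyh removes the adenine that was inserted opposite 8-oxoguanine, so the enzymes act on successive stages of the same lesion and start base excision repair. In the brain, a tissue with a high oxygen use and long-lived neurons, this pathway has been studied for its part in neuronal survival and memory.

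Replicates are lacking, so each value compares libraries and comes without a p-value. A fold divides the DKO share of library reads by the Mutyh KO share and is given with an exact conditional 95% interval that covers counting error only. A gene is called lower or higher where that fold was at least 1.5 in either direction and the interval excluded 1. A log2 ratio is that of RPKM after adding 1 RPKM to both values. Reads in genes numbered 17.0 M to 18.2 M per library (M, mega). The Mutyh KO library stood apart in sex-linked transcripts, none of which was compared. Xist, the RNA of the silenced X in females, had 10307 reads there against 14, 23 and 29 in WT, Ogg1 KO and DKO. The Y-linked genes Ddx3y, Eif2s3y, Kdm5d and Uty were nonetheless present, with 289, 184, 159 and 87 reads in Mutyh KO against 884, 516, 476 and 317 in DKO. The part of this difference in the autosomal results was not tested, and in a pair of libraries it cannot be told apart from genotype.

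Most transcripts differed little between the libraries. Of the compared genes, 98.7% lay within 1.5-fold on the log2 scale, and the median log2 ratio was -0.01. Calls were mostly of lower genes: 244 genes (1.92%) were lower in DKO and 40 (0.315%) higher. By the stricter 2-fold difference of the log2 ratio, 27 genes (0.213%) were lower and 5 (0.0394%) higher. Among those 32 genes, 22 of the lower and 1 of the higher had intervals excluding 1. The lower genes were led by hormone, choroid plexus and immediate early transcripts and by Camk1, the neighbour of Ogg1. The higher gene was Gh.

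Ogg1 RNA did not disappear from DKO but was read over a smaller part of its length. Ogg1 (gene ID 18294, chromosome 6) had 94, 130, 81 and 103 reads in WT, Ogg1 KO, Mutyh KO and DKO. Its fold in DKO was 1.20 (0.887 to 1.62), so the total did not separate DKO from Mutyh KO beyond counting error. The same ratio for Ogg1 KO to WT was 1.47 (1.12 to 1.94), whose interval excluded 1. The libraries lacking Ogg1 were thus the higher pair in reads. The reads of DKO covered 46.4% of the gene's length and those of Ogg1 KO 47.2%, where Mutyh KO reached 81.5% and WT 86.7%. The libraries labelled as lacking Ogg1 were thus the low pair, and the groups did not overlap. The difference between DKO and Mutyh KO, -35.1 percentage points, was the largest drop among 11828 genes with at least 50 reads in both libraries and a fold within 1.5. Over those genes the median difference was 0.29 points, with 1st and 99th percentiles of -9.09 and 11.7. The next drop, -24.0 points, was that of Nop10, a component of ribonucleoprotein particles that modify ribosomal RNA. Among 137 genes of like length and read number in the DKO library the median coverage was 84.3%, and 3 of them lay at or below Ogg1. In Mutyh KO, 90 of 138 such genes lay at or below it.

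Mutyh itself had 39, 35, 15 and 20 reads in WT, Ogg1 KO, Mutyh KO and DKO, covering 55.9%, 57.1%, 18.4% and 27.7% of its length. Its mean lay under 1 RPKM, so it was not among the compared genes. Both libraries labelled as lacking Mutyh held fewer of its reads and covered less of it than the other two.

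Camk1, which encodes calcium/calmodulin-dependent protein kinase I, was the gene nearest to Ogg1 and was lower in both libraries lacking Ogg1. It had 510, 160, 503 and 155 reads in WT, Ogg1 KO, Mutyh KO and DKO. The values formed a high and a low pair that did not overlap, split by the Ogg1 genotype and not by that of Mutyh. Its fold in DKO was 0.290 (0.241 to 0.348), with a log2 ratio of -1.63. The log2 ratio of Ogg1 KO to WT, in which Mutyh is intact and which shares no library with the first, was -1.45. The covered part of Camk1 was also smaller, at 71.9% in DKO and 69.8% in Ogg1 KO, where Mutyh KO reached 98.5% and WT 95.9%. Among 173 genes of like length and read number in DKO, with a median of 92.1%, 9 lay at or below it. In the reference annotation Ogg1 and Camk1 lie on opposite strands and overlap at their ends. The sources used here do not say whether the libraries kept strand. Without it, reads of one cannot be told apart from reads of the other where they overlap. Of the 16 calcium and calmodulin kinase genes compared, Camk1 alone was called. The next largest log2 ratio was 0.30, of Camk4, a kinase of neuronal nuclei.

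**Figure D1:**
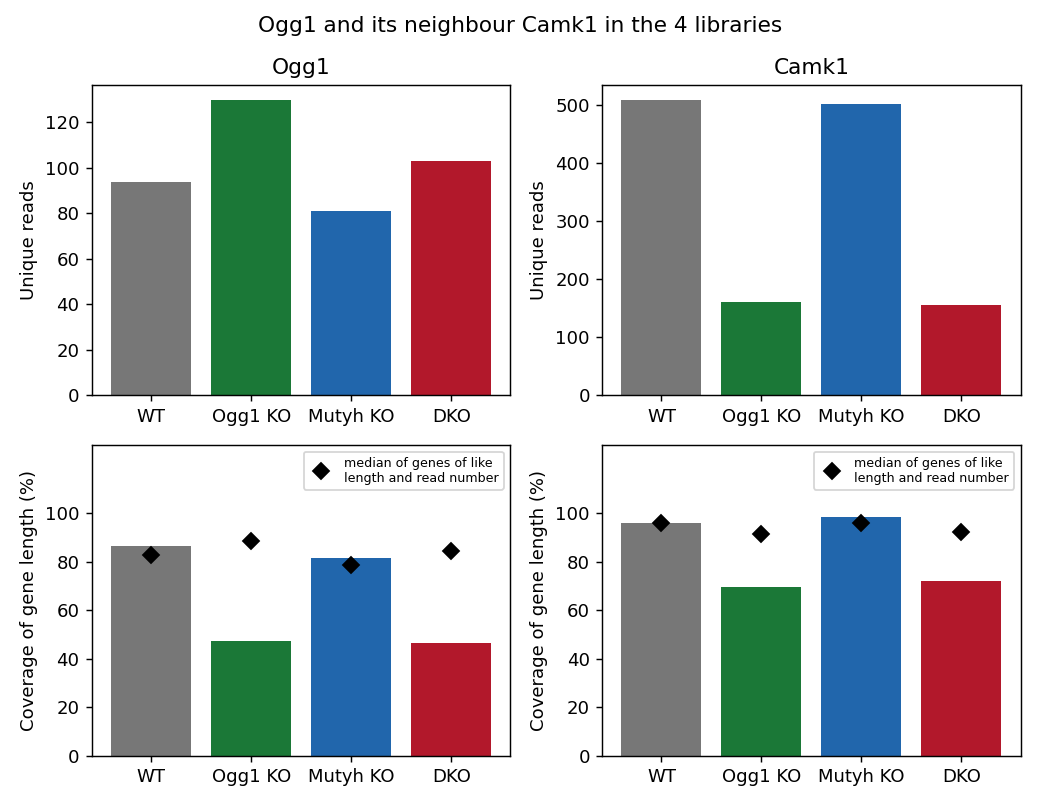
Unique reads (top, number of reads) and covered share of the gene's length (bottom, percent) of Ogg1 and Camk1, 1 bar for each library. Diamonds mark the median coverage of genes of like length and read number in the same library. Coverage of Ogg1 is 46.4% in DKO and 81.5% in Mutyh KO, while its reads are not lower, and Camk1 is low in both coverage and reads in the libraries lacking Ogg1.

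The other near neighbours of Ogg1 were not called. The 10 nearest compared genes on each side gave 20, of which Camk1 was called, and the other 19 had folds between 0.668 and 1.07. The lowest of these was that of Rad18, a ubiquitin ligase of DNA damage tolerance. Brpf1, a chromatin reader, and Tada3, a subunit of acetyltransferase complexes, flank the pair and lay within that range.

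Farther out on chromosome 6 the sides of Ogg1 differed, in a window chosen after the values were seen. Among the 160 compared genes before Ogg1 in the gene order, 3 were called (1.88%), all lower in DKO, and none of these had the same sign in Ogg1 KO to WT. Among the 160 after it, 9 were lower and 2 higher (6.88%), and 10 of these 11 had the same sign in both pairs. Both sides can be read against the 1.92% and 0.315% of all compared genes called lower and higher. The share of all called genes with the same sign in both pairs was not counted. The genes with the same sign, apart from Camk1, were as follows. Efcab12, which encodes an EF-hand protein and lies 33 compared genes from Ogg1, had 172, 112, 193 and 86 reads in WT, Ogg1 KO, Mutyh KO and DKO. Nrip2, an interactor of nuclear receptors, had 415, 273, 412 and 248 in the same order. In both genes the libraries lacking Ogg1 were the lower pair. Ano2, a calcium-activated chloride channel, had 132, 93, 140 and 46 reads, and its fold in DKO was 0.310 (0.217 to 0.435). Magohb, a copy of the exon junction protein Mago, had 38, 20, 51 and 33 reads. BC064078 moved the other way, with 41, 65, 33 and 71 reads and a fold of 2.03 (1.32 to 3.16). Ninj2, an adhesion protein induced by nerve injury, had 19, 10, 30 and 14. For each of these 6 genes the libraries with Ogg1 and those without it did not overlap in read number. The genes were picked by a call and a shared sign in the same libraries, which favours such a split. The share of all compared genes that split this way was not counted. The remaining 3 shared the sign with little difference between Ogg1 KO and WT. Bid, a pro-apoptotic BCL2 family member, had 164, 141, 141 and 89 reads, so Ogg1 KO and Mutyh KO were tied. Slc6a12, a betaine and GABA transporter, was called higher in DKO with 63, 60, 79 and 130 reads, where Ogg1 KO and WT were nearly level. Apold1, an endothelial early response gene, had 81, 75, 138 and 59 reads, with Ogg1 KO and WT nearly level. The 1 called gene of opposite sign among the 11 was A2m, the protease inhibitor alpha-2-macroglobulin, with 149, 314, 1081 and 344 reads, lower in DKO than in Mutyh KO but higher in Ogg1 KO than in WT.

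**Figure D2:**
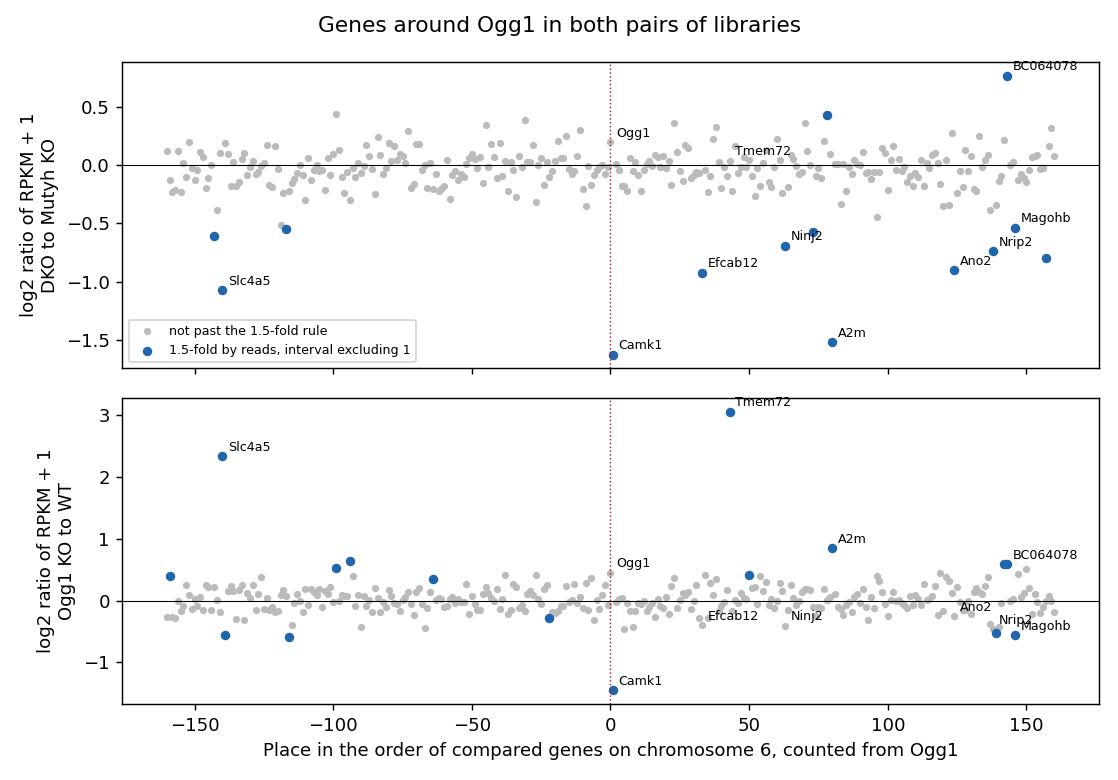
Log2 ratio of RPKM + 1 for compared genes along chromosome 6, by their place in the gene order counted from Ogg1 (0), for DKO to Mutyh KO (top) and Ogg1 KO to WT (bottom). Each point is a gene, and blue points are past the 1.5-fold rule. Camk1 is the low point next to Ogg1 in both panels, at -1.63 and -1.45.

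Genes called in the same direction in both pairs were few. In Ogg1 KO to WT, 361 genes (2.84%) were called higher and 133 (1.05%) lower, and 69 (0.544%) and 27 (0.213%) by the 2-fold rule. Genes alike numbered 12 lower (0.0946% of the compared genes) and 3 higher (0.0236%), while 92 (0.725%) were lower here and higher in Ogg1 KO than in WT, and 2 (0.0158%) the reverse. Of the 15 alike, 4 lay on chromosome 6, which holds 5.10% of the compared genes: Camk1, Magohb, BC064078 and Peg10, an imprinted gene derived from a retrotransposon. Peg10 had 1037, 644, 1023 and 542 reads in WT, Ogg1 KO, Mutyh KO and DKO, and its fold in DKO was 0.499 (0.449 to 0.554). Agxt2l1, a phospholyase of phosphoethanolamine, had 334, 192, 295 and 187 reads in that order. Gm7120, a predicted gene, had 590, 261, 584 and 382. In each of these 3 genes the libraries lacking Ogg1 were the low pair, without overlap. The same held for Npffr1, a neuropeptide receptor, with 60, 36, 52 and 30 reads, and for Grid2ip, a scaffold of the delta 2 glutamate receptor, with 159, 99, 153 and 105. Because these genes were picked as called lower in both pairs, such a split is largely fixed by the choice. Lcn2, lipocalin 2, had 57, 3, 21 and 7 reads. Spp1, which encodes osteopontin, was higher in both pairs, but its 118, 170, 224 and 365 reads did not separate the libraries by the Ogg1 genotype. Foxc2, a forkhead factor, was likewise higher in both, with 23, 49, 52 and 89 reads. By the 2-fold rule 3 genes were alike, Camk1, Hcrt and the small nucleolar RNA Snord32a, the last with 4, 1, 4 and 0 reads, and 14 were opposite.

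Choroid plexus transcripts were the largest group of lower genes. The choroid plexus is the epithelium that secretes cerebrospinal fluid and lies against the hippocampus in the lateral ventricle. Of 22 compared markers, 19 were lower in DKO and none higher, with a median log2 ratio of -0.96. Their summed share of reads was 0.0673%, 0.542%, 0.563% and 0.285% in WT, Ogg1 KO, Mutyh KO and DKO, so WT was the lowest and DKO lay between it and the others. The part of this tissue in the other differences was not tested. In a dissected tissue, fewer cells of a type and less RNA per cell cannot be told apart. The same list had a median of 2.09 in Ogg1 KO to WT, the opposite sign. Ttr, the carrier of thyroid hormone, had 3542, 47882, 45999 and 24883 reads in WT, Ogg1 KO, Mutyh KO and DKO, and its fold in DKO was 0.510 (0.502 to 0.517). Most other members had a fold near that of Ttr. Kcnj13, an inward rectifier potassium channel, was at 0.479 (0.420 to 0.546), Kl, the FGF23 co-receptor Klotho, at 0.477 (0.450 to 0.505), and Enpp2, which makes lysophosphatidic acid, at 0.538 (0.528 to 0.549). F5, coagulation factor V, was at 0.431 and Slc4a5, a sodium bicarbonate transporter, at 0.419.

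Prlr, Tmem72 and Slc5a5 lay furthest from the rest of the list in DKO against Mutyh KO. Prlr, the prolactin receptor, had 279, 1590, 3677 and 844 reads in WT, Ogg1 KO, Mutyh KO and DKO, a fold of 0.216 (0.200 to 0.233). Set against Ttr, Prlr had 78.8 reads per 1000 Ttr reads in WT and 79.9 in Mutyh KO, but 33.2 in Ogg1 KO and 33.9 in DKO. Such a low pair was not particular to Prlr. In WT, Ogg1 KO, Mutyh KO and DKO, F5 had 37.8, 25.9, 37.0 and 31.3 on this measure, and Kl 221, 59.7, 78.2 and 73.2. Kcnj13 and Enpp2 did not split this way, and the number of members that did was not counted. The Prlr ratio of DKO to Mutyh KO on this measure was 0.424 (0.393 to 0.457), and 0 of the 20 other members lay at or below it. Dividing by Ttr keeps the order of the folds, and Prlr was named for its low value, so this rank was fixed by the choice. The Prlr ratio of Ogg1 KO to WT was 0.422, but 11 of the 20 others lay at or below that, so the value of the second pair was usual for the list. Tmem72, a membrane protein gene 43 compared genes from Ogg1 on chromosome 6, gave the opposite order, with 14, 522, 235 and 258 reads in WT, Ogg1 KO, Mutyh KO and DKO. Per 1000 Ttr reads these were 3.95, 10.9, 5.11 and 10.4, again a pair with Ogg1 and a pair without it, now the higher one. Its ratio in DKO to Mutyh KO was 2.03 (1.69 to 2.43) on this measure and 2.76 in Ogg1 KO to WT, where it was the 1 member above 1. Slc5a5, an iodide transporter, was as far from the rest in DKO to Mutyh KO, at 1.97 (1.71 to 2.26), but was at 0.0883 in Ogg1 KO to WT. Car12, a carbonic anhydrase, was at 1.26 (1.17 to 1.37) and 0.141. Cldn2, a tight junction protein on the X chromosome, served as a comparison at 9.60, 8.86, 9.76 and 9.60. Kcnj13 and Folr1, the folate receptor, were likewise near 1 in their DKO to Mutyh KO ratios per Ttr, at 0.940 (0.824 to 1.07) and 0.965 (0.806 to 1.15). Besides Tmem72, the members that were not called by reads per library were Steap1, at 0.771 (0.508 to 1.16), and Slc5a5, with 404 reads in Mutyh KO and 430 in DKO. WT, where Ttr was lowest, gave the highest value per Ttr for 16 of the 21 members other than Ttr, among them Enpp2, Kl, Ace and Clic6. The choice of Ttr as the unit was made after the values were seen.

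**Figure D3:**
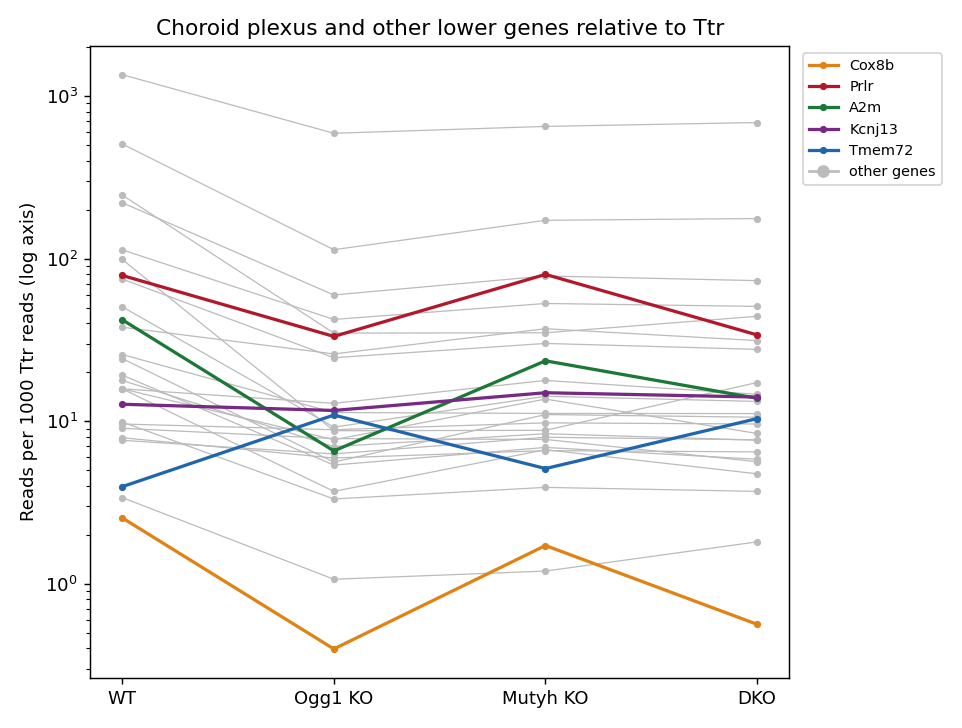
Reads per 1000 Ttr reads (log axis) of choroid plexus genes, of Cldn2 and of A2m, Col8a1, Cox8b, Igf2 and Rdh5 in the 4 libraries. Each line is a gene. Prlr is low in Ogg1 KO and DKO (33.2 and 33.9) and high in WT and Mutyh KO (78.8 and 79.9), Tmem72 runs the other way, and Kcnj13 is nearly level. Other lines, F5 and Kl among them, are also lower in Ogg1 KO and DKO than in WT and Mutyh KO. Most lines are highest in WT.

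Col8a1, Rdh5 and Cox8b, which lay outside the choroid plexus list, ranked among the lowest genes of all. Col8a1, a collagen, had 56, 368, 629 and 209 reads in WT, Ogg1 KO, Mutyh KO and DKO. Rdh5, a retinol dehydrogenase, had 56, 177, 307 and 118. Cox8b, a respiratory chain subunit best known from muscle, had 9, 19, 79 and 14 reads, a fold of 0.167 (0.0873 to 0.297). It was the 1 called gene of 86 compared respiratory chain genes, whose median log2 ratio was 0.01. Each of these 3 genes was highest in Mutyh KO.

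Globin transcripts and ciliated cell transcripts were lower as well. All 4 compared blood genes were called, with a median of -1.05. Beta-s, a beta-globin, had 408, 803, 1348 and 616 reads in WT, Ogg1 KO, Mutyh KO and DKO, a fold of 0.430 (0.391 to 0.474). Globin genes are close copies of each other, and how the counting shared reads between them is not given in the sources used here. All 15 ependymal and motile cilium genes lay below 0 and 8 were called, with a median of -0.53. Rsph1, a radial spoke protein, had 99, 132, 192 and 99 reads. Foxj1, the master factor of motile cilia, had 363, 401, 509 and 326 reads and a fold of 0.603 (0.523 to 0.695). In the blood list and for both of these cilium genes Mutyh KO was the highest library.

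Meningeal and mural cell genes were on the other side. Of 18 meningeal genes, 6 were higher and 1 lower, with a median of 0.30. Crabp2, which carries retinoic acid, had 28, 33, 35 and 79 reads in WT, Ogg1 KO, Mutyh KO and DKO, a fold of 2.13 (1.41 to 3.26). Slc47a1, an organic cation exporter, was at 1.96 (1.49 to 2.59), Slc22a6, an organic anion transporter, at 1.62, and Col3a1, a fibrillar collagen, at 1.58. The lower one was Igf2, a growth factor made in meninges and choroid plexus alike, with 1797, 5430, 7914 and 4388 reads. Of 9 genes of mural cells, the muscle and pericyte coat of vessels, Myh11 and Tagln were higher, at 1.60 (1.44 to 1.78) and 1.58 (1.30 to 1.91). None of the 16 endothelial genes was called, and their median was -0.09. Among higher genes outside the lists, named after their values were seen, were Prg4 (lubricin, 138, 126, 204 and 401 reads), Itih2 (a hyaluronan-binding serum protein, 96, 74, 125 and 256 reads) and Tbxas1 (thromboxane synthase, 35, 29, 28 and 65 reads). In these 3 genes DKO was the highest library.

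**Figure D4:**
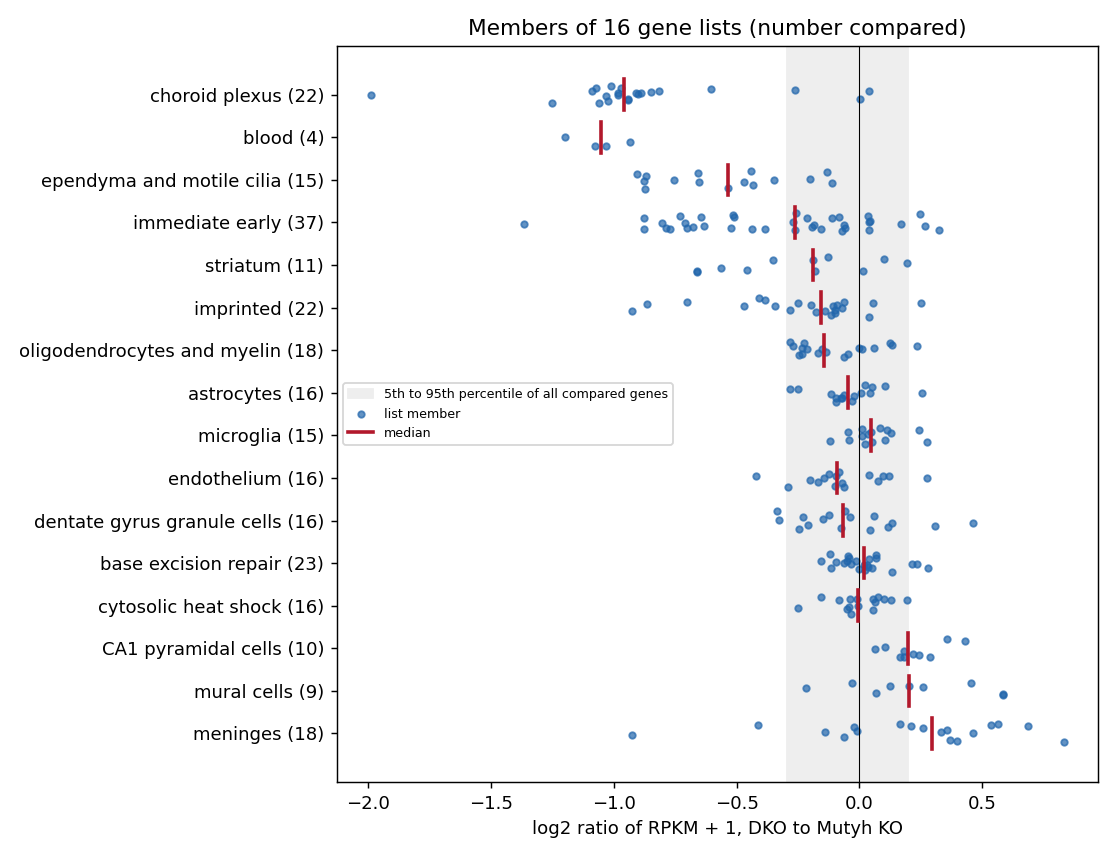
Log2 ratio of RPKM + 1 of DKO to Mutyh KO for the members of 16 gene lists, with the number compared in brackets. Points are genes, red bars medians, and the grey band spans the 5th to 95th percentile of all compared genes. Choroid plexus and blood genes lie near -1, immediate early genes reach from Fos at -1.36 to Bdnf at 0.32, and meningeal genes lie mostly above 0.

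Hormone genes of the hypothalamus and pituitary gave the extreme values of the comparison. Pmch, the precursor of melanin-concentrating hormone, had 2, 1, 67 and 1 reads in WT, Ogg1 KO, Mutyh KO and DKO. Hcrt, the orexin precursor, had 16, 2, 62 and 3. Both are made in the lateral hypothalamus, and both were highest in Mutyh KO. Their folds in DKO were 0.0141 (0.000351 to 0.0811) and 0.0456 (0.00915 to 0.140). The other 3 hypothalamic genes compared, Cartpt, Hdc and Vgf, were not called. Gh, pituitary growth hormone, had 4, 7, 1 and 256 reads, so DKO alone was high, at 241-fold (42.9 to 9561). The other pituitary gene compared, the secretory granule protein Chga, was at 0.989.

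Some genes of other forebrain regions were called lower, while the medians of their lists went either way. In the striatal list 4 of 11 genes were lower, with a median of -0.19. Among them were Six3, a homeobox factor (0.435, 0.309 to 0.605), and the dopamine receptors Drd2 (0.578, 0.404 to 0.820) and Drd1a (0.612, 0.420 to 0.885). In the thalamic list of 14, Zic1, Zic4 and Tac2 were lower and Tnnt1 higher, but 9 genes lay above 0 and the median was 0.05. Of 10 neocortical genes, 1 was lower and none higher, with 6 above 0 and a median of 0.09. Zic1, a zinc finger factor, had 1004, 710, 1195 and 723 reads in WT, Ogg1 KO, Mutyh KO and DKO. Zic4 had 181, 132, 242 and 141, in the same order of libraries. Further developmental factors were named after their values were seen to be lower, so their direction adds nothing to the lists. In the interneuron list none of 16 genes was called, 7 lay above 0 and the median was -0.06. Dlx1, a factor of interneurons, had 294, 381, 336 and 198 reads, and Sp8, of olfactory bulb interneurons, 108, 70, 104 and 49. Ebf3 had 122, 78, 165 and 75. For Sp8, Zic1, Zic4 and Ebf3 Ogg1 KO was also below WT, while for Dlx1 it was above.

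Markers of hippocampal neurons gave 1 called gene, in the dentate gyrus. The 10 CA1 pyramidal genes all lay above 0 without a call, with a median of 0.20. Gpr161, a receptor of primary cilia, was at 1.39-fold (1.19 to 1.62), with 389, 292, 278 and 410 reads in WT, Ogg1 KO, Mutyh KO and DKO. Nov, a matrix-associated growth factor, was at 1.29 (1.21 to 1.37), with 2071, 1807, 1642 and 2246 reads. For both genes WT and DKO were the higher pair. The 13 CA2 and CA3 genes had a median of 0.00 and no call. Among 16 dentate granule cell genes, Tdo2, a tryptophan-degrading enzyme, was higher at 1.54 (1.13 to 2.11). The medians were -0.05 in 16 astrocyte, 0.05 in 15 microglial, -0.14 in 18 oligodendrocyte and -0.06 in 16 interneuron genes, none of which was called.

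Immediate early genes, which neurons switch on within minutes of activity and which encode transcription factors and synaptic proteins, were lower in DKO in part. Of 37 compared, 13 were lower and none higher, and 29 lay below 0, with a median of -0.26. The same list had a median of 0.00 in Ogg1 KO to WT. Their summed share of reads was 0.171%, 0.170%, 0.176% and 0.145% in WT, Ogg1 KO, Mutyh KO and DKO, so DKO stood below the other 3. Fos, a subunit of the AP-1 factor, had 251, 243, 343 and 118 reads in WT, Ogg1 KO, Mutyh KO and DKO, a fold of 0.324 (0.261 to 0.401). Npas4, a factor induced selectively by calcium signalling, had 431, 295, 473 and 262 reads, a fold of 0.522 (0.447 to 0.608). Arc, which controls AMPA receptor uptake at synapses, had 3200, 2907, 3067 and 1864 reads, a fold of 0.572 (0.540 to 0.607). For Fos and Arc DKO was lowest by a wide gap, whereas for Npas4 Ogg1 KO lay close to it. Egr2, a zinc finger factor, had 67, 50, 93 and 29 reads, a fold of 0.294 (0.187 to 0.450).

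The promoters of 5 of these genes are shown because they hold the letters of the cyclic AMP response element, the site of the activity-dependent factor CREB. The element was searched as TGACGTCA and as its shorter form TGACG, which is part of it, on both strands, in RefSeq windows of the GRCm38.p6 build from 250 bases before to 50 bases after each start. Of the 13 lower genes 10 had a window, of which 3 held TGACGTCA and 9 held TGACG. Of the 24 other members 19 had a window, and 2 and 14 of these held them. These counts are of genes, some with several windows. Over all genes with a window, 549 and 6228 of 27025 held them, and over all 32851 windows the shares were 1.79% and 20.8%. TGACG was thus frequent in the list whether or not its members were lower. TGACGTCA was held by 3 and 2 genes, too few to compare the groups. Printed are the 250 bases before the start, with TGACGTCA in capitals for Btg2, Dusp1 and Arl4d, and TGACG or its reverse complement CGTCA in capitals for Fos and Npas4. A match is a description of letters, not a site.
Fos (chr12:85473640-85473889, plus strand): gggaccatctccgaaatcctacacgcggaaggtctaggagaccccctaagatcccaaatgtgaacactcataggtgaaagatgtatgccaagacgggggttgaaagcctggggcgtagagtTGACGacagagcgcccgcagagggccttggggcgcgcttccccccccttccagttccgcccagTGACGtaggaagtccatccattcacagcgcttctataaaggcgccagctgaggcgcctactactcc
Npas4 (chr19:4989972-4990221, minus strand): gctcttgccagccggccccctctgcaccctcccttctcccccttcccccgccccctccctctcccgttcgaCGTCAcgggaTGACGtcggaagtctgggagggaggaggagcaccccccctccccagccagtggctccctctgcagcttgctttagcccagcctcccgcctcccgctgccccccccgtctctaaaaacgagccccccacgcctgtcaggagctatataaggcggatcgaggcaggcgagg
Btg2 (chr1:134079156-134079405, minus strand): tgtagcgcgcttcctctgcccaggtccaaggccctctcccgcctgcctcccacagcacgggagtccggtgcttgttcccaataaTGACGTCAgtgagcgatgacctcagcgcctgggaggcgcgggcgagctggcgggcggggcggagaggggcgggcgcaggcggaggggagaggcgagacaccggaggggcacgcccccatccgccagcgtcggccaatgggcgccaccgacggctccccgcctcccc
Dusp1 (chr17:26508473-26508722, minus strand): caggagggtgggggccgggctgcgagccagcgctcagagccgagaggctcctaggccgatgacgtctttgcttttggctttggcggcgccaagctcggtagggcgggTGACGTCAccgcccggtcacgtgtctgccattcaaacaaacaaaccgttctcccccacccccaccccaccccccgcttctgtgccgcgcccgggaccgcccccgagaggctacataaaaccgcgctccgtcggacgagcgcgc
Arl4d (chr11:101665291-101665540, plus strand): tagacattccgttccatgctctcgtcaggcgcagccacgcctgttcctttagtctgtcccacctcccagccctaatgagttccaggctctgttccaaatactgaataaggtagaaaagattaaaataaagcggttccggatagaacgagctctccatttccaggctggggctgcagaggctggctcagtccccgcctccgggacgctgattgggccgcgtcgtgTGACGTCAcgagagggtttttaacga

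Among the genes with TGACGTCA, Btg2, an antiproliferative factor, had 331, 271, 419 and 246 reads in WT, Ogg1 KO, Mutyh KO and DKO, a fold of 0.553 (0.471 to 0.649). Dusp1, a phosphatase that switches off MAP kinases, had 339, 319, 403 and 261 reads, a fold of 0.610 (0.520 to 0.715). Arl4d, a small GTPase, had 91, 134, 139 and 76 reads, a fold of 0.515 (0.384 to 0.686). In each of them Mutyh KO was the highest library and DKO the lowest. The remaining lower members were Cyr61, Ier2, Fosb, Sik1, Junb and Gadd45b, with folds of 0.440 to 0.645. Members that were not called included the AP-1 subunit Jun at 0.951, Nr4a3 at 1.03 and Plk2 at 1.03. Egr1, which has the role of an activity marker beside Fos, was at 0.735 (0.698 to 0.773), below the called size. Bdnf, a neurotrophin, at 1.28 (1.15 to 1.42), Homer1, a synaptic scaffold, at 1.21 (1.14 to 1.29) and Nptx2, a synaptic pentraxin, at 1.21 (1.06 to 1.38) lay above 1. None of 12 genes of MAP kinase feedback was called, and their median was 0.02.

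**Figure D5:**
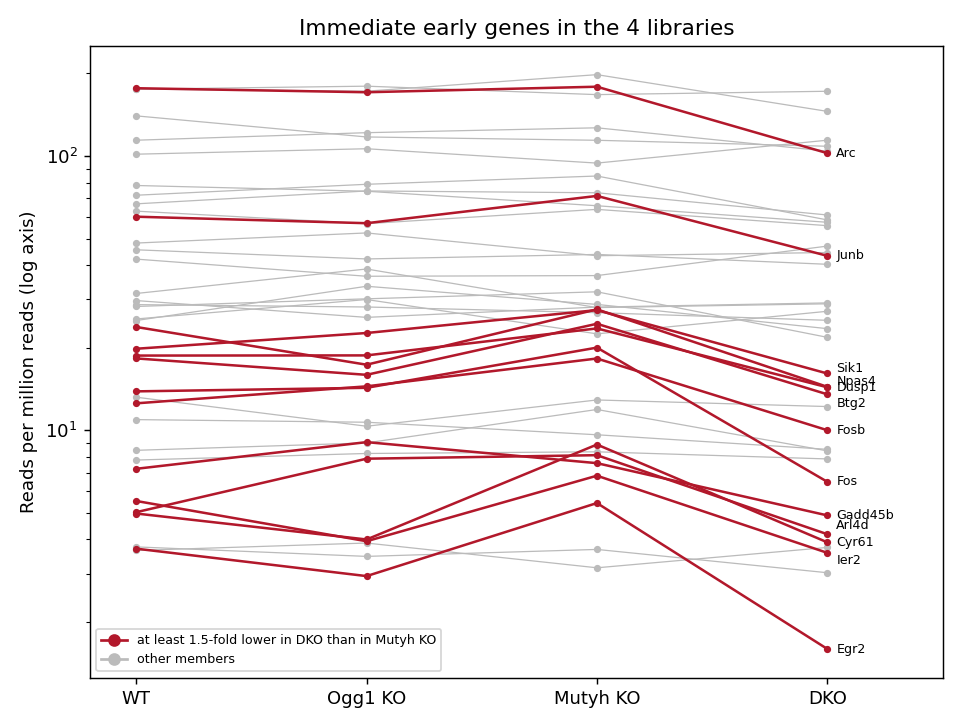
Reads per M library reads (M, mega) (log axis) of the 37 immediate early genes in the 4 libraries, with the 13 genes at least 1.5-fold lower in DKO than in Mutyh KO in red. The red lines drop from Mutyh KO to DKO, and several, Fos and Egr2 among them, are also higher in Mutyh KO than in WT.

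Genes of DNA repair gave no call in either repair list. None of 23 base excision repair genes was called, and the median was 0.02. Nudt1, which clears oxidized guanine nucleotides from the pool, had 24, 28, 24 and 33 reads in WT, Ogg1 KO, Mutyh KO and DKO, a fold of 1.30 (0.743 to 2.29). Nudt5, of the same enzyme family, was at 1.25 (1.02 to 1.53), and Mpg, a glycosylase of alkylated purines, at 1.19 (0.961 to 1.48). The 9 mismatch repair genes had a median of -0.05 and no call. Of 17 p53 targets, Btg2 and the cell cycle inhibitor Cdkn1a (0.658, 0.515 to 0.837) were lower, and Btg2 is also an immediate early gene. With as few reads as Nudt1 had, a difference of 1.5-fold was not detectable at this depth.

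Stress and redox genes were called in small number. None of 19 Nrf2 and glutathione genes, 16 cytosolic heat shock genes or 18 endoplasmic reticulum chaperones was called, with medians of -0.05, -0.01 and -0.08. Of 17 genes for the removal of superoxide and peroxide, Gpx3, the plasma glutathione peroxidase, was lower at 0.545 (0.441 to 0.673) and Ucp2, a mitochondrial carrier, at 0.610 (0.550 to 0.677). Gpx3 had 151, 121, 247 and 143 reads in WT, Ogg1 KO, Mutyh KO and DKO, and Ucp2 419, 738, 932 and 604. Both were highest in Mutyh KO, as were the choroid plexus genes as a sum.

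Immune genes gave few calls as well. Of 9 inflammatory and acute phase genes, Lcn2 and Pglyrp1, a peptidoglycan recognition protein, were lower, with a median of -0.31. Of 16 interferon response genes Ifit3 was higher at 1.51 (1.13 to 2.03), with a median of 0.00. The 14 genes of antigen presentation had no call and a median of 0.16. Cd74, the invariant chain of MHC class II, had 72, 246, 176 and 274 reads in WT, Ogg1 KO, Mutyh KO and DKO and a fold of 1.47 (1.21 to 1.78). H2-Aa, a class II chain, had 18, 84, 73 and 114 reads. For both genes WT was the lowest library.

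Neurotransmission genes were near 0 as groups. None of 23 glutamate receptor genes was called, with a median of 0.01, and none of 13 GABA receptor genes, with a median of 0.05. Grin2a, an NMDA receptor subunit, had 316, 577, 667 and 1018 reads in WT, Ogg1 KO, Mutyh KO and DKO, a fold of 1.44 (1.30 to 1.59). Grin2b, another subunit, had 2309, 1159, 2335 and 3232, a fold of 1.30 (1.24 to 1.38). Grik1 of the same list went the other way, at 0.719 (0.610 to 0.847). Of the list, 16 genes lay above 0 and 7 below. Of 20 genes for monoamine receptors and enzymes, the striatal Drd2 and Drd1a were the called ones. The 18 genes of plasticity and scaffolds had a median of 0.04 and no call. Among 22 imprinted genes, 4 were lower, Igf2, Peg10, Dlk1 (0.566, 0.497 to 0.643) and Magel2 (0.582, 0.447 to 0.754), with a median of -0.16. Malat1, an abundant nuclear RNA, had 18756, 36451, 37851 and 54443 reads and a fold of 1.35 (1.34 to 1.37), under the called size.

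Of the 47 lists, 24 had no called member and 28 had a median between -0.1 and 0.1. The lists held 67 of the 244 lower and 12 of the 40 higher genes, and 44 of the lower ones were in lists of cell types, regions or tissues, Igfbpl1 of the neurogenesis list among them. Entpd4, a nucleotide-hydrolysing enzyme of the Golgi, was the most abundant of the genes more than 2-fold lower that were in no list, with 1451, 1458, 3419 and 1445 reads in WT, Ogg1 KO, Mutyh KO and DKO. Its fold was 0.398 (0.374 to 0.423), and Mutyh KO alone stood apart, the other 3 being level. A near-identical copy, Entpd4b, lies close to it, so its value is uncertain. Several further extremes were short RNAs with few reads, among them Rnu1a1 with 5, 1, 1 and 7 reads (6.59-fold, 0.847 to 297) and Snora65 with 9, 5, 5 and 14. Gm14391 had a log2 ratio of 1.19 although its reads were level, at 228 in Mutyh KO and 232 in DKO, because its deposited length differs between the libraries.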

How the data were processed

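RNA from the hippocampus was sequenced in 4 libraries, 1 per genotype, and the labels name the mm9 build. The authors deposited, per the file headers, a count of unique reads per gene, the gene's length, the percent of its length covered by reads and its RPKM. Aligner, annotation and strand are not given in the sources used here. Genes listed in no row of a library were taken as 0. Unnamed rows, 0.0179% to 0.0195% of a library, stayed in with their IDs. Chromosomes and gene order came from the reference annotation, in which 18398 of 18492 gene IDs were found. Of 13186 genes with a mean of at least 1 RPKM, 451 on X, 4 on Y and 40 without a chromosome were left out. Folds, exact intervals and the floor of 3 reads used pandas 2.3.3 and scipy 1.17.1, and the calculation was tested on simulated data. Ribosomal RNA took 0.351% to 1.48% of reads. Alternatives were the pseudocount, the filter, all chromosomes, totals without ribosomal RNA, edgeR 4.0.16 (TMM) and DESeq2 1.42.0 factors, which were used for scaling and not for tests.

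Genes were named by rule: Ogg1 and Mutyh, the 15 highest and lowest log2 ratios, up to 5 called members of each list or its 3 furthest where none was called, the 10 nearest compared genes on each side of Ogg1, the 5 largest coverage differences each way, and genes 2-fold different in both pairs. Further names are genes alike in both pairs, genes along chromosome 6, list members that the rules do not name, and those said to be chosen after their values were seen. Cldn2 was added as a comparison. Members, lists and rules were chosen with earlier results of these data known.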

Additional observations from a re-analysis of the deposited data

Results flagged for a closer look

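For 14 genes with a difference of at least 2-fold the log2 ratio of DKO to Mutyh KO had the opposite sign to that of Ogg1 KO to WT, and the difference between the pairs was not tested. In 12 of them DKO was lower and Ogg1 KO was higher than its control. These were the choroid plexus genes Prlr (-1.99), Kcne2 (-1.25), F5 (-1.09), Slc4a5 (-1.07), Otx2 (-1.06), Kl (-1.03), Clic6 (-1.02) and Kcnj13 (-1.01), together with Col8a1 (-1.33), Rdh5 (-1.31), the globin Beta-s (-1.20) and the secreted protease inhibitor Wfdc2 (-1.07). The short RNAs Rnu1a1 (1.77) and Mir3074-1 (1.84) went the other way on 7 and 4 reads in DKO. Xist lies outside the comparison and had 10307 reads in Mutyh KO, against 14 in WT.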

How the results depend on the processing

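No paired analysis was possible because each genotype has 1 library. Over 1984 alternative values 1942 stayed within their limit, 38 moved further and 4 changed sign. The limit was 1.5-fold for a count and the counting interval for a gene. For a list median it was an interval from the spread between members. Genes whose interval reached 0 or infinity had a limit too wide to be passed. Among the 2-fold counts, the 5 higher genes became 13 with a pseudocount of 0.1 RPKM, 2 with 3 RPKM, 18 without the filter on low values, 1 at a mean of at least 5 RPKM, 9 with the mean over DKO and Mutyh KO, and 12 on all chromosomes. The 27 lower genes became 77, 11 and 16 with the pseudocounts of 0.1 and 3 RPKM and the higher filter, and 14 without the lists of other cells and tissues. By the 1.5-fold rule, 40 higher genes became 116 without the filter and 4 at 5 RPKM, and 244 lower genes became 408 and 71. Genes 2-fold different in both pairs in the same direction went from 3 to 6 (0.1 RPKM), 1 (3 RPKM), 1 (at least 5 RPKM) and 5 (all chromosomes). Those in opposite directions went from 14 to 39 (0.1 RPKM), 4 (3 RPKM) and 5 (without the lists). At 5 RPKM fewer members were left and the list medians of the hypothalamus (0.081), pituitary (-0.016), intestine (0.13) and antigen presentation (-0.011) changed sign. Scaling by edgeR or DESeq2 factors or without ribosomal RNA kept every count within 1.5-fold. The coverage drop of Ogg1 ranked 1 also with at least 20 or 80 reads, values added after the data were seen. Depth limits the precision for genes with few reads, such as Nudt1 and Mutyh.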
